A study of Mus musculus with 48 samples.

Results

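The nascent RNA of mouse embryonic stem cells was compared after 3 h of SWI/SNF inhibition with the compound BRM014 and after 3 h of DMSO, its solvent control. The members were the libraries whose labels name BRM014 or DMSO nascent RNA, 4 of the 48 samples of the series and 4 of its 8 nascent RNA libraries, with 2 libraries in each group. All 4 came from TCF2.2, an embryonic stem cell line derived in 2i medium, with the strain given as C57BL/6 for these libraries. The treated cells had 10 µM BRM014, and all cells of both groups had 500 µM 4-thiouridine for 5 min before harvest. Newly made RNA, which carries this label, was tied to biotin, pulled down and sequenced. Synthetic ERCC RNAs were added in proportion to the number of cells. The series text calls the libraries of each condition biological duplicates. A p-value here measures only the spread between duplicate libraries, and the 4 libraries compared are of 1 cell line. How far apart the cultures were kept is not stated. The spread was estimated over all 8 nascent RNA libraries, including those with Chd4 or scrambled shRNA and puromycin.

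SWI/SNF complexes use the energy of ATP to slide or evict nucleosomes, which keeps promoters and enhancers open to transcription factors and RNA polymerase II. Their ATPase is BRG1, encoded by Smarca4, or BRM, encoded by Smarca2, and BRM014 blocks the ATPase activity of either protein without removing it. A short pulse of 4-thiouridine reports transcription during the pulse, so that RNA made before the treatment adds little to the counts.

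Total gene counts were 12977098 and 14582377 in BRM014 replicates 1 and 2, and 17128981 and 16813866 in DMSO replicates 1 and 2. Between 34.2% and 47.3% of them lay in a few rows of ribosomal RNA sequence. All 10 markers of embryonic stem cells were expressed, with a summed level of 45563 to 69514 counts per kb of exon. The markers of primed epiblast, primitive endoderm, mesoderm, neural ectoderm, trophoblast and fibroblasts, 23 genes in all, were in no case in the expressed set. Their summed levels were at most 26.8 counts per kb for any of these cell types in any of the 4 libraries. Mesp1 of mesoderm was at 0 in DMSO replicate 2.

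The inhibitor blocks proteins, so the genes of its targets check neither the labels nor the treatment. Smarca4 (chromosome 9, 21616169 to 21704230, mm10) had TMM-scaled counts of 865 and 707 with BRM014 and 618 and 830 with DMSO. TMM scaling divides each library by a factor that aligns the bulk of the expressed genes. The groups overlapped, with a log2 fold change of 0.11 and an SE of 0.16 (2 libraries against 2, adjusted p = 0.757). Smarca2 had 41 and 42 raw counts with BRM014 and 66 and 56 with DMSO, below the expressed set. Of 15 expressed SWI/SNF subunit genes 0 rose and 1 fell, where 4.69% of all expressed genes were lower. The gene that fell was Bcl7b (-0.52 ± 0.15, adjusted p = 0.0299). Its call ended without BRM014 replicate 1 (log2 fold change -0.53), without BRM014 replicate 2 (-0.47) or without DMSO replicate 1 (-0.38).

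The comparison asked which genes changed their transcription within 3 h of losing SWI/SNF activity. Of 8017 expressed genes 197 were higher with BRM014, which is 2.46%, and 376 were lower, which is 4.69%. The threshold was a Benjamini-Hochberg adjusted p under 0.05 in edgeR's quasi-likelihood test. These shares are the background for each count of called genes in a list. A gene counted as expressed if its mean count over the 8 nascent RNA libraries was, per kb of exon, at least 10-fold above that of the silent olfactory and vomeronasal receptor genes. The median log2 fold change of all expressed genes was -0.005, so a rise or fall is relative to the typical expressed gene. In all 197 and all 376 called genes the 2 BRM014 libraries lay on the same side of the 2 DMSO libraries. Such a separation was common, since 23.6% of the expressed genes had both BRM014 libraries above both DMSO libraries and 24.6% had both below.

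The count of calls rested on single libraries. Without BRM014 replicate 1, 85 genes were higher and 235 lower, and without BRM014 replicate 2 these were 91 and 148. Without DMSO replicate 2 they were 762 and 671. This library lay between the other DMSO library and the BRM014 libraries for most raised genes, since its scaled count was above that of DMSO replicate 1 in 168 of the 197, against 4487 of all 8017 expressed genes.

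**Figure D1:**
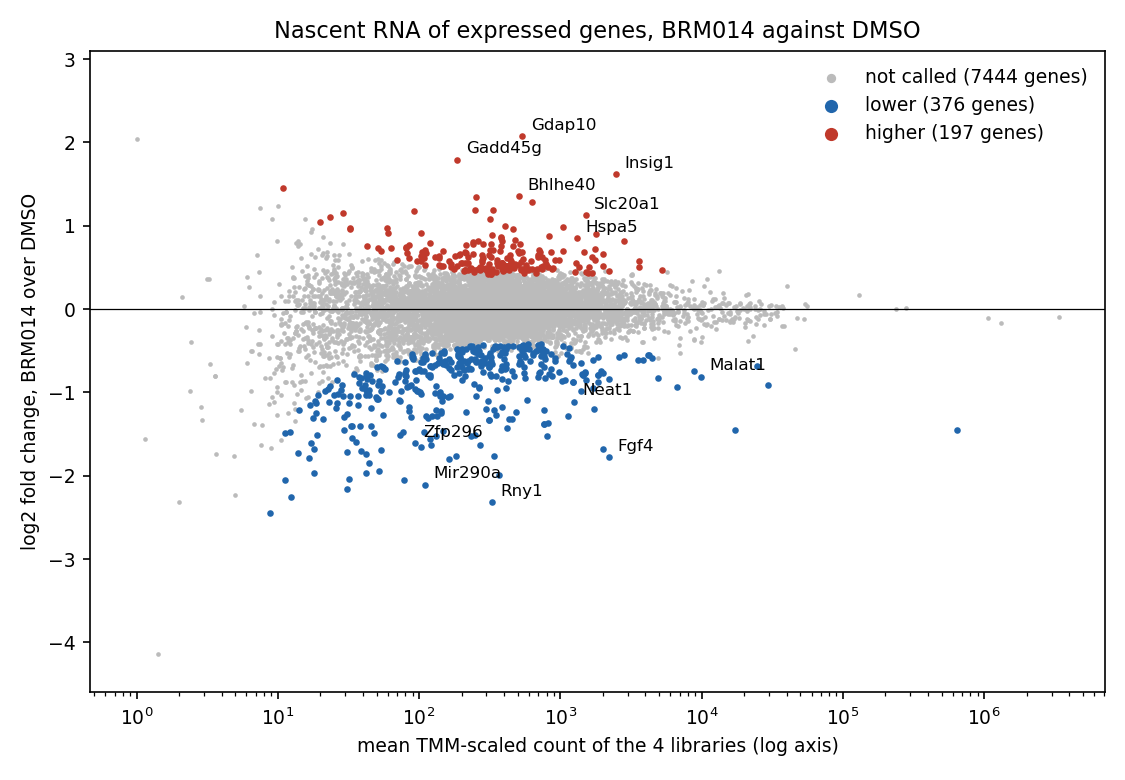
Each point is an expressed gene, with the mean TMM-scaled count of the 4 libraries on a log axis and the log2 fold change of BRM014 over DMSO. The 197 higher genes (red) and 376 lower genes (blue) lie on either side of the genes not called (grey). Insig1 and Fgf4 stand far from 0 at high counts, and Gdap10 does so at lower counts than these.

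Insig1 was among the largest rises of well expressed genes. It encodes the endoplasmic reticulum protein that holds back sterol synthesis (chromosome 5, 28071363 to 28078662). It had scaled counts of 3863 and 3643 with BRM014 and 1087 and 1355 with DMSO. Both BRM014 libraries were far above both DMSO libraries, 3.07-fold in the fit (1.62 ± 0.14 on the log2 scale, where ± gives the SE here and below, adjusted p = 2.69e-07). Gdap10, which has no coordinates in the table, had 942 and 801 with BRM014 and 177 and 235 with DMSO, a rise of 4.21-fold (2.07 ± 0.19, adjusted p = 4.22e-07). Bhlhe40, a transcriptional repressor tied to the circadian clock, had 745 and 718 with BRM014 and 216 and 355 with DMSO (1.35 ± 0.16, adjusted p = 1.25e-05). The DMSO libraries of Bhlhe40 differed from each other more than those of Insig1, yet the groups stayed apart.

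The other genes of this set rose less than Bhlhe40, with log2 fold changes of 0.76 to 1.28. Slc20a1, a phosphate transporter gene, had 2127 and 2030 scaled counts with BRM014 and 854 and 1051 with DMSO (1.12 ± 0.14). Nampt, the rate-limiting enzyme of NAD salvage, had 1366 and 1415 with BRM014 and 591 and 815 with DMSO (0.98 ± 0.14). Eif5 encodes a factor that starts translation and had 1056 and 1114 against 541 and 636 (0.88 ± 0.13). In none of these 3 genes did the groups overlap. The phosphatase gene Ptp4a1 (1.00 ± 0.14), Tmem41b of the endoplasmic reticulum membrane (0.96 ± 0.13), the phosphoinositide phosphatase gene Pip4p1 (0.90 ± 0.13), the corepressor gene Irf2bp2 (0.78 ± 0.15) and the deubiquitinase gene Usp1 (0.76 ± 0.13) rose as well. Pip4p1 overlaps Apex1 on the opposite strand, which had 852 raw counts on average against 1744 for Pip4p1. Which strand was counted is not given in the sources used here, so reads of a gene and of an antisense partner cannot be told apart.

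Growth factor, stem cell and chromatin genes were among the largest falls. Fgf4 encodes a secreted FGF that acts through ERK to prepare stem cells for differentiation (chromosome 7, 144847367 to 144865243). It had 1089 and 924 scaled counts with BRM014 and 3082 and 3798 with DMSO. Both treated libraries were far below either control, and the fit put the level at 0.292 of that in DMSO (-1.78 ± 0.14, adjusted p = 7.69e-08). Tet1, which oxidises methylated cytosine in DNA, had 1156 and 992 with BRM014 and 1782 and 2102 with DMSO (-0.86 ± 0.15, adjusted p = 0.000864). Mycn, a growth regulator of the Myc family, had 286 and 274 with BRM014 and 458 and 539 with DMSO (-0.84 ± 0.13, adjusted p = 0.000225). The groups did not overlap in these 3 genes. The call for Tet1 ended without BRM014 replicate 2, at an adjusted p of 0.0518.

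Ppp1r10, a nuclear regulator of protein phosphatase 1, had 961 and 907 with BRM014 and 1697 and 1998 with DMSO (-0.98 ± 0.13). Sgk1, a kinase gene that responds to hormones and osmotic stress, had 235 and 245 against 425 and 518 (-0.97 ± 0.14). Gfod2 had 130 and 132 against 431 and 384 (-1.63 ± 0.15). The groups were apart in each of these 3. Dqx1 (-1.31 ± 0.22) also fell, as did Nlrp12 (-1.67 ± 0.13). Nlrp12 overlaps Mir291a to Mir295 of the miR-290 cluster, mostly on the opposite strand. The strand counted is not known, so the falls of Nlrp12 and of that cluster are not separate evidence. Brca2 of DNA repair (-0.83 ± 0.16), the cytoskeletal linker gene Dst (-0.83 ± 0.16) and Tmem245 (-0.81 ± 0.15) were called with all libraries but not without BRM014 replicate 2, at adjusted p of 0.085, 0.0503 and 0.056. The remaining members of this set were Neat1, Malat1, Hist2h4 and Rnu3a, described with the noncoding RNAs and histone genes.

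**Figure D2:**
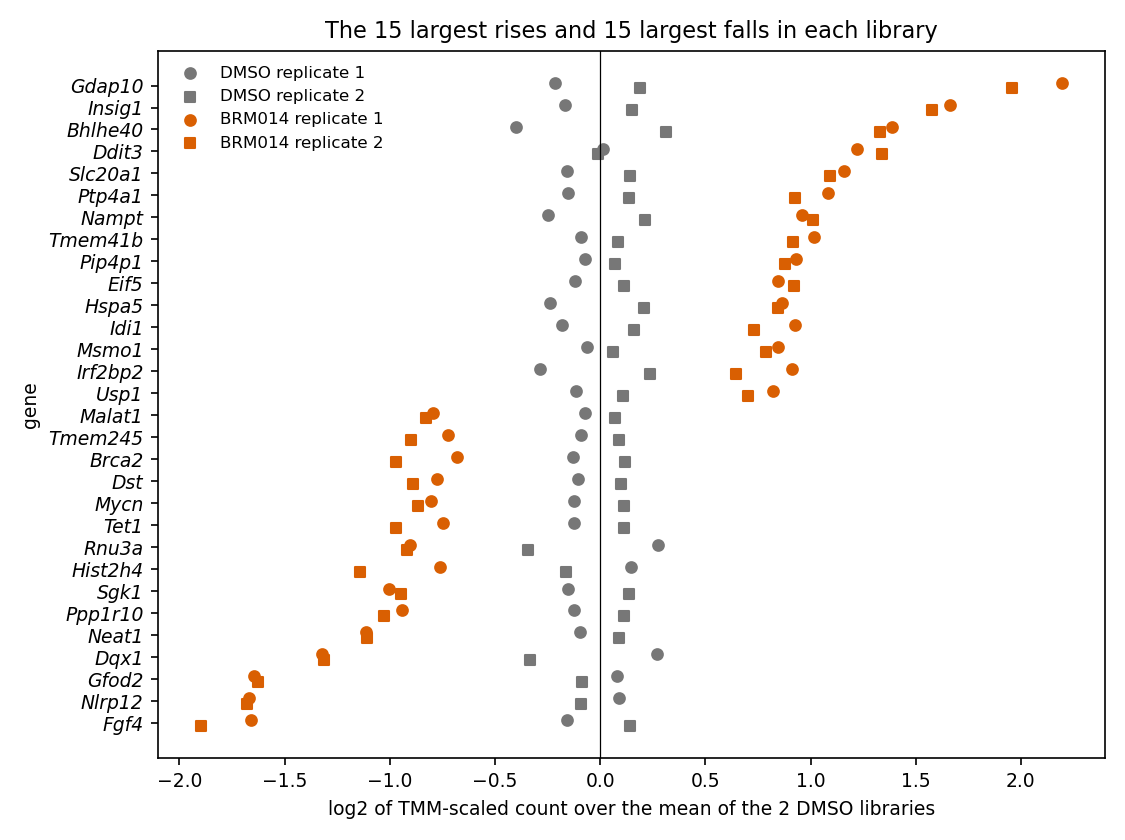
Each row is a gene, and the x axis gives the log2 of its TMM-scaled count over the mean of the 2 DMSO libraries, for each DMSO (grey) and BRM014 (orange) library. The BRM014 points of all 15 raised genes lie to the right of the DMSO points and those of all 15 lowered genes to the left, with Rnu3a and Dqx1 showing the widest gaps between DMSO libraries among the falls.

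Genes of the pluripotent state differed from each other in their response. Of 11 expressed general pluripotency genes 0 rose and 2 fell, with a median log2 fold change of -0.20. Of 20 naive pluripotency genes 0 rose and 4 fell, with a median of -0.12, against a median of -0.005 and 4.69% lower over all expressed genes. Without BRM014 replicate 2, 1 gene of each list was lower, without DMSO replicate 1 these were 4 and 5, and the naive median lay between -0.27 and -0.01 with a library left out. Zfp296, which encodes a zinc finger protein of the pluripotent state, had 41 and 51 scaled counts with BRM014 and 131 and 153 with DMSO. This is 0.328 of the DMSO level (-1.61 ± 0.18, adjusted p = 5.17e-06). Zfp296 shares bases with Gemin7 on the opposite strand, which had 256 raw counts on average against 97 for Zfp296. The strand counted is not known. Utf1, a chromatin protein of undifferentiated cells, had 332 and 262 against 489 and 459 (-0.68 ± 0.13, adjusted p = 0.00228). Klf4, a transcription factor of the naive state, had 605 and 527 against 777 and 999 (-0.65 ± 0.14, adjusted p = 0.00471). The groups did not overlap in these 3 genes, and the calls for Utf1 and Klf4 ended without BRM014 replicate 2, at adjusted p of 0.167 and 0.161.

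Tex19.1 (-0.65 ± 0.13) and the nuclear receptor gene Nr0b1 (-0.50 ± 0.13) were the other lower genes of the naive list, besides Fgf4. Both calls ended without BRM014 replicate 2, at adjusted p of 0.0939 and 0.195, and that of Nr0b1 also without BRM014 replicate 1, at 0.162. The main regulators of the state were not called. Pou5f1, which encodes OCT4, had 5135 and 4955 scaled counts with BRM014 and 5604 and 5145 with DMSO (-0.09 ± 0.13, adjusted p = 0.752). Sox2 was at 0.16 ± 0.16, Esrrb at -0.09 ± 0.14 and Tfcp2l1 at 0.07 ± 0.16, each with overlapping groups. Nanog had 1658 and 1595 with BRM014 and 1834 and 2371 with DMSO, and its log2 fold change of -0.37 ± 0.14 missed the threshold (adjusted p = 0.11) although the groups did not overlap. Among 4 expressed FGF/ERK feedback genes only Fgf4 was called. Dusp6 and Spry4, which dampen that signal, had 14 to 61 raw counts and Myc had 3 to 11, too few for the expressed set.

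Sterol synthesis genes under SREBP, the factor that turns them on when membrane sterol is low, were higher where they were called. Of 30 expressed members 5 rose and 0 fell, against 2.46% higher and 4.69% lower over all expressed genes. The median log2 fold change of the 30 was 0.27, and 24 had a value above 0. Among the 5, besides Insig1, were Idi1 and Msmo1, enzymes of isoprenoid and sterol synthesis, and Cyp51, which removes a methyl group from lanosterol. Msmo1 had 3657 and 3515 scaled counts with BRM014 and 1947 and 2119 with DMSO (0.82 ± 0.13, adjusted p = 0.00027). Idi1 had 656 and 574 against 305 and 386 (0.83 ± 0.13, adjusted p = 0.000384). Cyp51 had 987 and 886 against 557 and 738 (0.53 ± 0.14, adjusted p = 0.0254). All 3 genes were apart between groups, although DMSO replicate 2 lay nearer to the treated libraries in each. The call for Cyp51 ended without BRM014 replicate 1 (adjusted p = 0.167) and without DMSO replicate 1 (0.156).

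Other genes of the pathway did not pass the test. Hmgcs1, an early enzyme of sterol synthesis, was at 0.38 ± 0.13 and missed the threshold (adjusted p = 0.0821). Srebf2, which encodes the main sterol SREBP, was at 0.18 ± 0.13. Insig1 had the highest fold change of the 5 called members. With a library left out, 13 members were higher without DMSO replicate 2, and 3 without BRM014 replicate 1 or without DMSO replicate 1, and the median lay between 0.14 and 0.36.

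Genes of the unfolded protein response, which raises chaperones when proteins misfold in the endoplasmic reticulum, were also higher where they were called. Of 21 expressed members 4 rose and 0 fell, at a median of 0.28, against 2.46% higher over all expressed genes. Hspa5, the main chaperone of this compartment (BiP), had 1707 and 1687 scaled counts with BRM014 and 794 and 1082 with DMSO (0.85 ± 0.14, adjusted p = 0.000502). Hsp90b1, another chaperone (GRP94), had 1855 and 1802 against 968 and 1299 (0.69 ± 0.15, adjusted p = 0.00465). Calr, the calcium-binding chaperone calreticulin, had 4174 and 4487 against 2615 and 3183 (0.58 ± 0.14, adjusted p = 0.012). The groups were apart in all 3, and the call for Calr ended without BRM014 replicate 2 (adjusted p = 0.15). Herpud1 of protein disposal rose too (0.79 ± 0.13, adjusted p = 0.000383), while Xbp1, the gene of a transcription factor of this response, was at 0.09 ± 0.14 and was not called. Without DMSO replicate 2, 11 members were higher, and without DMSO replicate 1 the median was 0.11.

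Factors of this response bind the endoplasmic reticulum stress element, here taken as CCAAT, 9 bases and CCACG on either strand. RefSeq promoter windows of 300 bases, 250 before and 50 after the gene start (GRCm38.p6), were searched. The element is shown for the expressed genes that hold it, because the 3 called genes with a match were all chaperone genes of the endoplasmic reticulum. It was in 35 of 27025 promoters (0.13%), in 9 of the 4523 promoters of expressed genes over 200 bases (0.199%), in 3 of 128 promoters of raised genes (2.34%) and in 0 of 119 of lowered genes. Each line runs 5′ to 3′ along the strand that reads CCAAT first, with 5 bases on either side, and capitals mark both ends of the element:
Hspa5, chr2:34772020-34772048, plus strand: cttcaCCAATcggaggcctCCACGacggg
Hsp90b1, chr10:86705633-86705661, minus strand: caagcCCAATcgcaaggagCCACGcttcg
Hsp90b1, chr10:86705528-86705556, plus strand: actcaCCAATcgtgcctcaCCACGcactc
Calr, chr8:84847070-84847098, plus strand: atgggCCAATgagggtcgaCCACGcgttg
Canx, chr11:50325795-50325823, minus strand: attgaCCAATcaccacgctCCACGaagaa
Pdia6, chr12:17266486-17266514, plus strand: agagaCCAATgaaaggcggCCACGgcgtg
Dnajc3, chr14:118937822-118937850, plus strand: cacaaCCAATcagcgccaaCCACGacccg
Creld2, chr15:88819515-88819543, minus strand: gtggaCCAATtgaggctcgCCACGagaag
Hnrnpa3, chr2:75659012-75659040, minus strand: ctcgaCCAATggcgagagcCCACGtcggg
The element of Calr is also that of the 9th gene, 1700122E12Rik, which starts on the other strand beside it. A match is a description of these letters, not of binding.

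The genes behind these lines did not move alike. Hspa5, Hsp90b1 and Calr rose, as given above. Canx, a membrane chaperone, was at 0.46 ± 0.15 (adjusted p = 0.0599), and the folding enzyme gene Pdia6 at 0.33 ± 0.12 (adjusted p = 0.113). The cochaperone gene Dnajc3 was at 0.28 ± 0.16 and Creld2, a folding factor gene of the same compartment, at 0.07 ± 0.13. Hnrnpa3, which encodes an RNA-binding protein, was at 0.34 ± 0.15. The noncoding gene 1700122E12Rik, which shares the element of Calr, was at 0.01 ± 0.22, so the 2 genes on either side of it had different values, a difference that was not tested.

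8 other motifs were searched in the same windows. The E-box CACGTG was in 7.24% of all promoters, 11.5% of those of expressed genes, 26 of 128 of raised genes (20.3%) and 10 of 119 of lowered genes (8.4%). The sterol element TCACNCCA was in 4.28% of all, 3.58% of expressed, 13 of 128 raised (10.2%) and 6 of 119 lowered (5.04%). Among the sterol genes named above as risen, the window of Msmo1 held these letters and those of Insig1, Idi1 and Cyp51 did not. The AP-1 motif TGANTCA was in 5 of 128 raised (3.91%) and 9 of 119 lowered promoters (7.56%), against 4.11% of expressed. The motif TGATGNAA was in 6 raised (4.69%) and 2 lowered (1.68%), against 2.3%. The TATA box TATAAA was in 9 (7.03%) and 14 (11.8%), against 6.83%. The octamer ATTTGCAT was in 2 (1.56%) and 4 (3.36%), against 1.3%. The GC box GGGCGG was in 96 (75%) and 75 (63%), against 66.9%. The motif TGACGTCA was in 7 (5.47%) and 5 (4.2%), against 3.65%. No difference in share was tested. Promoters of raised genes were also richer in CpG, with a median of 27 CpG in 300 bases against 21 in genes not called and 19 in lowered genes. CACGTG holds a CpG, and the part of base composition in its share was not tested.

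The integrated stress response, in which ATF4 drives amino acid and redox genes, was split. Of 31 expressed members 3 rose and 1 fell, at a median of 0.12, with 20 values above 0 and 11 below. Shares over all expressed genes were 2.46% higher and 4.69% lower. Without DMSO replicate 1 the median was -0.03 with 2 higher, without DMSO replicate 2 it was 0.26 with 7 higher, and without BRM014 replicate 1 or without BRM014 replicate 2, 1 was higher. Ddit3, which encodes the stress transcription factor CHOP (chromosome 10, 127290774 to 127296288), had 850 and 925 scaled counts with BRM014 and 368 and 362 with DMSO (1.28 ± 0.12, adjusted p = 9.4e-07), with close replicates and a wide gap. Atf4 itself had 4166 and 4344 against 2710 and 3286 (0.51 ± 0.13, adjusted p = 0.0203), and Ddit4, an inhibitor of mTORC1, had 860 and 869 against 622 and 618 (0.48 ± 0.12, adjusted p = 0.0176). Gdf15, a secreted stress signal, moved the other way, with 151 and 177 against 243 and 265 (-0.62 ± 0.14, adjusted p = 0.00635). The amino acid enzyme genes Asns (-0.16 ± 0.13), Psat1 (-0.10 ± 0.12) and Phgdh (-0.11 ± 0.13), all known ATF4 targets, were not called. The call for Atf4 ended in 3 of the 4 fits that leave out a library (adjusted p of 0.0763 to 0.195) and that for Ddit4 in 2 (0.102 and 0.143). Ddit3 was higher in all 4, and Gdf15 was lost without BRM014 replicate 1 (adjusted p = 0.133).

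Immediate early genes, which answer growth and stress signals within minutes, gave 3 rises and 0 falls among 10 expressed members. Over all expressed genes 2.46% were higher and 4.69% lower. Both BRM014 libraries lay above both DMSO libraries in 6 of the members and below both in 4. Klf6 had 480 and 390 scaled counts with BRM014 and 182 and 227 with DMSO (1.08 ± 0.14, adjusted p = 4.24e-05), and Klf10 had 909 and 857 against 453 and 624 (0.71 ± 0.14, adjusted p = 0.00238). Mcl1, a survival gene, was at 0.43 ± 0.13 (adjusted p = 0.0428), a call that ended in 3 of the 4 fits without a library. The median of 0.37 became -0.05 in genes 30-fold above background and 0.14 without DMSO replicate 1, and 6 members were higher without DMSO replicate 2. Both expressed clock genes rose, Bhlhe40 and Cry1 (0.69 ± 0.14, adjusted p = 0.00271). Of 17 genes of p53 and its targets 2 rose and 0 fell, the cyclin gene Ccng1 (0.52 ± 0.13) and the phosphatase gene Ppm1d (0.52 ± 0.14), calls that ended without BRM014 replicate 1 (adjusted p of 0.0951 and 0.121) and without BRM014 replicate 2 (0.115 and 0.153), and for Ccng1 also without DMSO replicate 1 (0.0625). Cdkn1a, the p53 target that stops the cell cycle, was at -0.23 ± 0.12.

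Of 87 ribosomal protein genes, 45 proteasome genes, 24 G1/S genes, 21 glycolysis and hypoxia genes, 20 genes of Pol II pausing and elongation, 16 heat shock genes, 13 Pol II subunit genes and 11 NuRD genes, edgeR called 0 higher and 0 lower, with medians between -0.11 and 0.14. In the smaller of these lists the shares of all expressed genes, 2.46% higher and 4.69% lower, come to about 1 gene or fewer, so that a count of 0 is near the background. Over all expressed genes 1678 had an unadjusted p under 0.05, of which 748 were higher and 930 lower, and DESeq2 called 96 higher and 207 lower. Of 60 translation factor genes 4 rose, Eif5, Eif4a2, Eif3e and the pseudogene Eif3s6-ps2, and 1 fell, Eif4a3. With the 4 BRM014 and DMSO libraries fitted alone, edgeR did not call Eif4a2 (adjusted p = 0.135) and Eif3e (0.0815). DESeq2 did not call Eif3s6-ps2 (adjusted p = 0.114) and Eif4a3 (0.0967). Of 12 Polycomb genes 1 rose (Rnf2, 0.56 ± 0.15). Of 14 coactivator and H3K4 methyltransferase genes 1 rose (Brd2, 0.59 ± 0.14) and 1 fell (Kmt2d, -0.55 ± 0.16). The calls for Rnf2 and Brd2 ended without BRM014 replicate 1 (adjusted p of 0.13 and 0.106) and without DMSO replicate 1 (0.126 and 0.0867), and that for Kmt2d ended without BRM014 replicate 1, BRM014 replicate 2 or DMSO replicate 2 (0.076 to 0.389). Of the lists of other cell states, those of primed epiblast and mesoderm had 0 expressed genes, those of 2-cell-like cells and germline 1 each, and those of endoderm, trophoblast and fibroblasts 2 each, all without a call. The neural list had 1, the tubulin gene Tubb3, which fell (-0.66 ± 0.16).

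**Figure D3:**
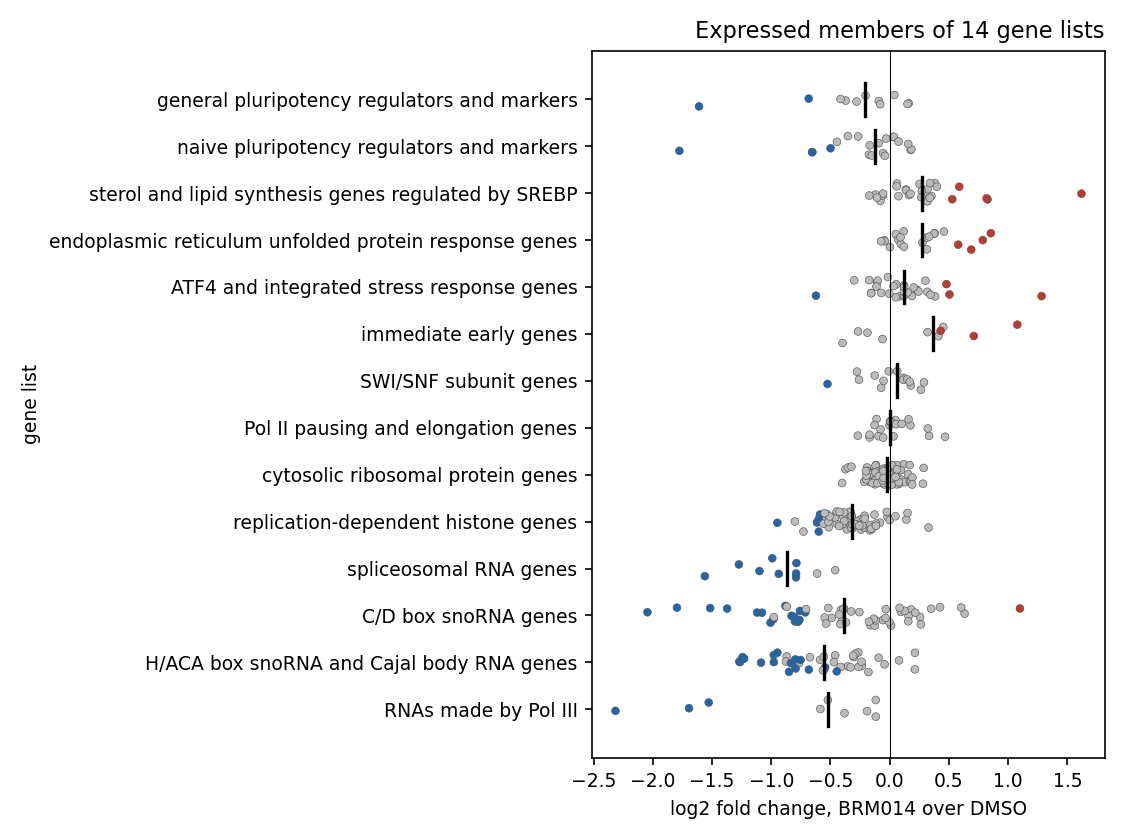
Each point is an expressed member of a gene list, placed at its log2 fold change of BRM014 over DMSO, and black bars mark medians. Red points are genes called higher, blue points lower and grey points not called. The sterol and unfolded protein response lists have medians of 0.27 and 0.28, and the spliceosomal RNA list lies wholly below 0 with a median of -0.86.

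The long nuclear noncoding RNAs Neat1 and Malat1 fell. Neat1, the scaffold of paraspeckles (chromosome 19, 5824708 to 5845478), had 794 and 797 scaled counts with BRM014 and 1605 and 1827 with DMSO (-1.11 ± 0.15, adjusted p = 5.13e-05). Malat1, a neighbouring RNA of nuclear speckles (chromosome 19, 5795690 to 5802672), had 7314 and 7140 against 12064 and 13305 (-0.81 ± 0.18, adjusted p = 0.00765). Both genes had close replicates and groups far apart, though the call for Malat1 ended without BRM014 replicate 2 (adjusted p = 0.0949). Of 6 expressed long nuclear noncoding RNA genes these were the 2 that fell, and 0 rose, at a median of -0.47, with 1 member above 0.

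Short noncoding RNA genes made up much of the fall. Genes of at most 200 exonic bases were 550 of the 8017, and 166 of them were lower (30.2%) against 4.69% of all, while 5 were higher (0.909%). Between 101 and 200 bases 133 of 356 were lower (37.4%), at or under 100 bases 33 of 194 (17%), and in the next class, over 200 and up to 500 bases, 35 of 966 (3.62%). Their median log2 fold change was -0.39. Without BRM014 replicate 2, 108 of the 550 were lower, and without DMSO replicate 2, 206. The part of RNA size and of fragment selection in these values was not tested. Their share of all expressed counts did not separate the groups, at 4.73% and 4.61% with BRM014 and 4.92% and 4.43% with DMSO, although 166 of these genes fell.

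Most genes of small nuclear RNAs, the RNA part of the spliceosome, fell. Of 10 expressed genes 0 rose and 8 fell, at a median of -0.86. The share lower was 4.69% over all expressed genes and 30.2% in genes of at most 200 bases. The 8 include Rnu7, whose U7 RNA acts in histone mRNA processing and not in the spliceosome. The 2 not called also had values below 0, among them Rnu1a1 (-0.61 ± 0.20, adjusted p = 0.0617). Rnu12, the U12 RNA that recognises rare introns, had 4469 and 4758 scaled counts with BRM014 and 7658 and 9998 with DMSO (-0.94 ± 0.15, adjusted p = 0.000362). Rnu11, its U11 partner, had 96 and 92 against 178 and 195 (-0.99 ± 0.14, adjusted p = 0.000112). Rnu5g of U5 had 65 and 56 against 177 and 177 (-1.56 ± 0.18, adjusted p = 9.86e-06). All 3 had groups far apart, and 7 to 9 of the list were lower with each library left out. The U1 copies Rnu1b1 and Rnu1b6 (-0.79 ± 0.13 each) are near-identical, so that reads may be split between them, and their values are not separate evidence. Rnu11 shares bases with Gm28872 on the opposite strand, with 142.75 and 144.5 raw counts on average. Rnu5g does so with Parp16, with 121.75 and 108.75, and the strand counted is not known.

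Small nucleolar RNAs, which guide the modification of ribosomal RNA, fell in part. Of 57 expressed C/D box genes 1 rose and 16 fell, at a median of -0.39. Of 42 H/ACA box and Cajal body RNA genes 0 rose and 16 fell, at a median of -0.55. By comparison, 4.69% of all expressed genes and 30.2% of those of at most 200 bases were lower. The C/D box count was 8 without BRM014 replicate 2, 10 without DMSO replicate 1 and 9 in DESeq2, and the H/ACA box count was 10 in DESeq2. Snord118, the U8 RNA of ribosomal RNA processing, had 140 and 119 scaled counts with BRM014 and 331 and 406 with DMSO (-1.52 ± 0.15, adjusted p = 1.25e-06). Snora9 had 84 and 88 against 214 and 191 (-1.23 ± 0.15, adjusted p = 1.18e-05). Rnu3a, a U3 gene of 214 bases, had 20615 and 20438 against 46683 and 30458 (-0.91 ± 0.18, adjusted p = 0.00238). The BRM014 libraries were near each other in these 3 genes and the DMSO libraries of Rnu3a were not. The other U3 copies had values between -0.76 and -0.75, with DMSO replicate 1 above replicate 2 in each. They lie together on chromosome 11 with 216 bases each, so reads may be split between them. Their values may not be separate evidence. The 1 C/D box gene that rose was Snord16a, with 20 and 42 raw counts against 16 and 16 (1.10 ± 0.29, adjusted p = 0.021), a call that ended without BRM014 replicate 2 (adjusted p = 0.437).

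Many of these RNAs are cut from the introns of other genes, which allows a comparison with the host gene. Gene lengths are exonic, so the values of host and snoRNA gene cover different parts of the transcript. No separate value for host introns was available. Of 147 expressed genes of the RefSeq snoRNA class, 113 lay on the same strand within an expressed longer gene. Of these 39 were lower and 1 higher, at a median of -0.43. Of their 77 host genes 4 were lower and 4 higher, at a median of 0.02. Over all expressed genes the shares were 4.69% lower and 2.46% higher. The 39 lower snoRNA genes had 33 hosts, of which 1 was lower, at a median of 0.03. Snord82 and Snora75 both lie in introns of Ncl, the nucleolin gene. Snord82 had 32 and 29 scaled counts with BRM014 and 182 and 71 with DMSO (-2.05 ± 0.35), and Snora75 had 69 and 63 against 119 and 140 (-0.98 ± 0.16). Ncl itself had 3250 and 3209 with BRM014 and 3179 and 3929 with DMSO, at -0.14 ± 0.16 (adjusted p = 0.686) and with overlapping groups. The difference between a snoRNA gene and its host was not tested.

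**Figure D4:**
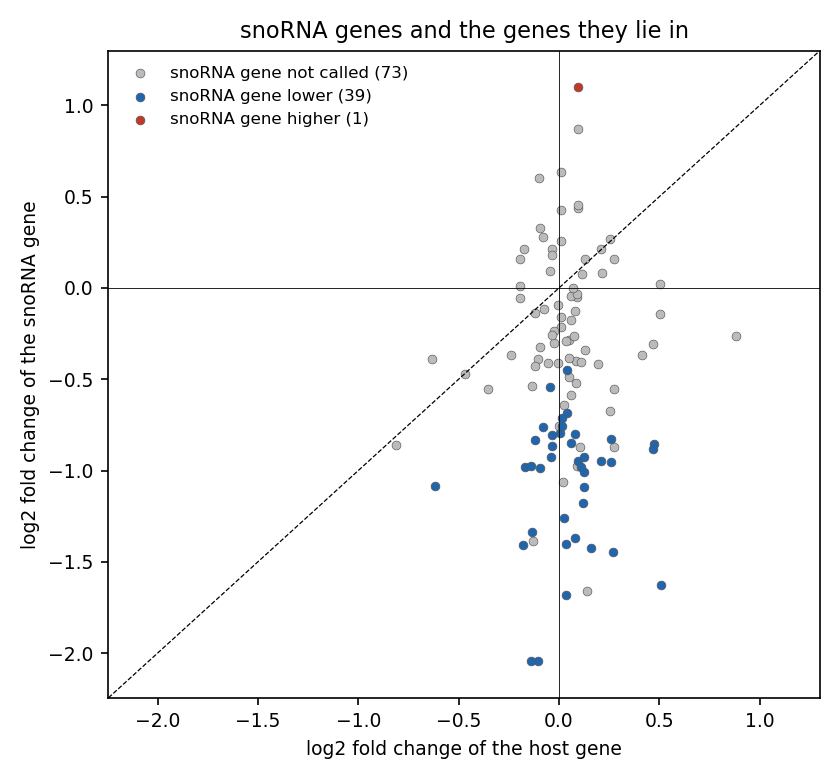
Each point is 1 of 113 snoRNA genes, with the log2 fold change of BRM014 over DMSO of its host gene on the x axis and its own on the y axis, and the dashed line marks equal values. The 39 lower snoRNA genes (blue) lie below the line, at host values that centre on 0.03.

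RNAs made by Pol III fell in part. Of 9 expressed genes 3 fell and 0 rose, at a median of -0.52. Lower calls made up 4.69% of all expressed genes and 30.2% of those of at most 200 bases. Without DMSO replicate 2, 6 fell, and the median was -0.24 without BRM014 replicate 2 and -0.21 without DMSO replicate 1. The Y RNA gene Rny1 had 110 and 111 scaled counts with BRM014 and 649 and 454 with DMSO, 0.201 of the DMSO level (-2.31 ± 0.22, adjusted p = 6.9e-07). Rny3, its neighbour on chromosome 6, had 444 and 388 against 1017 and 1375 (-1.53 ± 0.18, adjusted p = 9.97e-06). The third was the vault RNA gene Vaultrc5 (-1.69 ± 0.21). Rn7sk, which holds the elongation factor P-TEFb (-0.38 ± 0.19), and Rmrp (-0.52 ± 0.19) were among those not called.

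Most microRNA genes cover the hairpin within the primary transcript and a few, such as Mir142hg, a host transcript. Of 64 expressed members 18 fell and 1 rose, at a median of -0.28. This compares with 4.69% lower over all expressed genes and 30.2% in genes of at most 200 bases. All 9 expressed rows of the miR-290 cluster (chromosome 7, 3218626 to 3220841) fell, by log2 fold changes of -2.16 to -1.40, with Mir290a at 40 and 43 scaled counts with BRM014 and 206 and 155 with DMSO (-2.11 ± 0.18, adjusted p = 2.69e-07). The mature 3′ arms are shown because the cluster gives stem cells their main seed family, with the seed (bases 2 to 8) in capitals, from RefSeq (GRCm38.p6, plus strand):
miR-290a-3p: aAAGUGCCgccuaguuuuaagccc
miR-291a-3p: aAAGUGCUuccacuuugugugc
miR-291b-3p: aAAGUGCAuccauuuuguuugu
miR-294-3p: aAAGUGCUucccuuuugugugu
miR-295-3p: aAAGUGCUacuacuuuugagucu
miR-293-3p: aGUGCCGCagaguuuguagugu
The first 5 share AAGUGC and 3 of these share the whole seed AAGUGCU, while miR-293-3p has another seed. The rows had 5 to 208 raw counts, so single values are imprecise. They lie in the same locus, and Mir290b and Mir292b cover bases of Mir290a and Mir292 on the opposite strand. Their values are therefore not separate evidence, nor is that of Nlrp12, which overlaps Mir291a to Mir295. The 1 member that rose was Mir5117, which RefSeq classes as a long noncoding RNA (0.59 ± 0.17, adjusted p = 0.042), a call that ended in 3 of the 4 fits without a library. Among the called short genes named here, Mir142b fell most (-2.44 ± 0.44), with 2 and 3 raw counts with BRM014 against 13 and 19. Its call ended without BRM014 replicate 2, at a log2 fold change of -2.46.

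Replication-dependent histone genes, short and made in S phase, held few calls. Of 68 expressed members 0 rose and 5 fell, against 4.69% lower over all expressed genes. Their median was -0.32, with 63 values below 0, and it was -0.10 without BRM014 replicate 2, -0.14 without DMSO replicate 1 and -0.49 without BRM014 replicate 1. Hist2h4 had 322 and 247 scaled counts with BRM014 and 604 and 486 with DMSO (-0.95 ± 0.16, adjusted p = 0.000572), and Hist1h1b of linker histone had 1510 and 1164 against 2309 and 1777 (-0.61 ± 0.16, adjusted p = 0.0247). Replicate 2 was the lower in each group for both genes. The call for Hist1h1b ended without BRM014 replicate 2 (adjusted p = 0.409) and without DMSO replicate 1 (0.145). The number of lower histone genes was 9 without BRM014 replicate 1, 1 without BRM014 replicate 2, 1 without DMSO replicate 1 and 39 without DMSO replicate 2. Many histone genes are near-identical in sequence, and how reads with several alignments were counted is not given in the sources used here.

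The result for the longest transcripts depended on single libraries. Of 191 expressed genes with over 10000 exonic bases 1 was higher (0.524%) and 19 were lower (9.95%), at a median of -0.09. Besides Neat1, Tet1, Dst and Brca2 these were among others Ep400, a chromatin remodelling ATPase (-0.69 ± 0.15, adjusted p = 0.0803 without BRM014 replicate 2), Mdn1, an assembly factor of ribosomes (-0.78 ± 0.16), and the cytoskeletal linker gene Macf1 (-0.65 ± 0.16). The list of long genes was looked at after the values were seen. Without BRM014 replicate 2, 3 of the 191 were lower and 1 higher, at a median of 0.02. Without DMSO replicate 2, 19 were higher and 13 lower, at a median of 0.06, and without BRM014 replicate 1 and DMSO replicate 1 in turn 11 and 28 were lower. Of the 18 long genes at least 30-fold above background 0 were lower. Over 200 and up to 10000 bases 191 genes were higher and 191 lower of 7276.

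**Figure D5:**
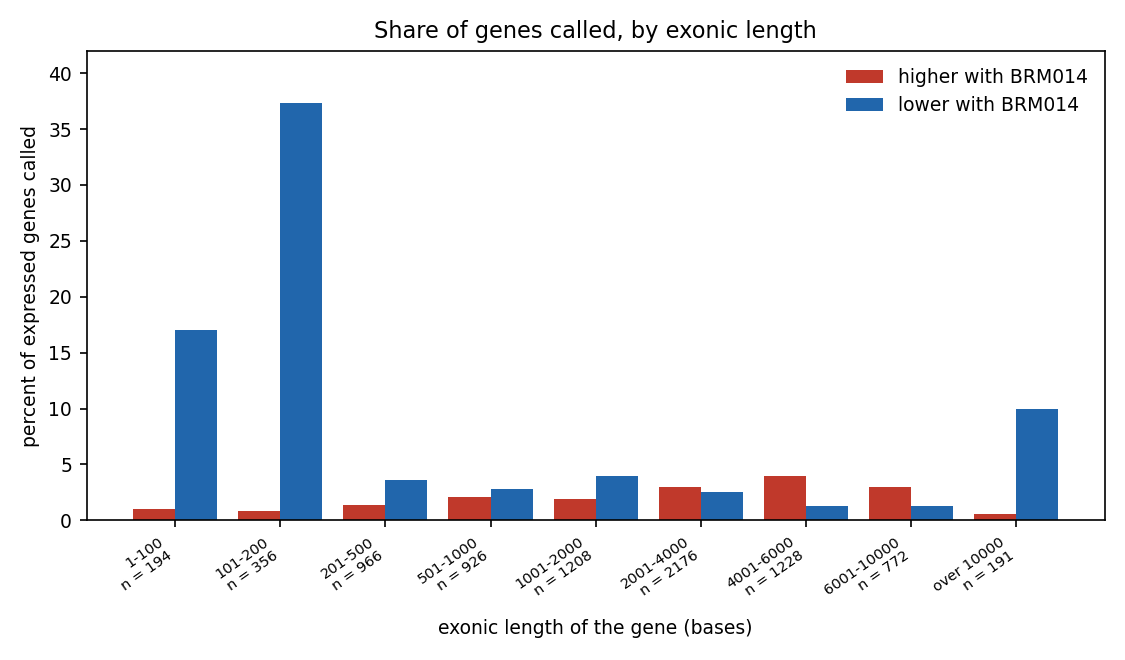
Bars give the percent of expressed genes called higher (red) or lower (blue) with BRM014, by exonic length in bases, with the number of genes under each pair. The share called lower is 37.4% between 101 and 200 bases, is 1.3% in the last class before 10000 bases and is 9.95% over 10000, where it rests on single libraries (3 of 191 genes without BRM014 replicate 2).

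The ERCC RNAs, added per cell number, gave the scale against cells. Gene counts per ERCC count were 108 and 92.1 with BRM014 and 102 and 113 with DMSO, so the groups overlapped. The means were 100.2 ± 11.3 (SD, n = 2) and 108 ± 7.69 (SD, n = 2), a log2 ratio of -0.11 (two-sided exact permutation test, p = 0.667, where 2 against 2 can give no p below 0.333). With the rows of ribosomal RNA sequence left out they were 58.8 ± 2.54 and 59.5 ± 5.83, a log2 ratio of -0.02. The ratio gives nascent RNA per cell only if ERCC RNAs and nascent RNA were recovered alike in all libraries, which was not tested. When library sizes were set by the plain ERCC sums, 13 genes were higher and 93 lower, and when they were set by TMM over all 92 ERCC RNAs, 0 and 0, with 30 and 70 at an unadjusted p under 0.05. On that last scale the median expressed gene was at 0.14. The 6 abundant ERCC RNAs held 119908 of 119976 ERCC counts in BRM014 replicate 1 and 167146 of 167318 in DMSO replicate 1. The other ERCC RNAs thus had few counts. With TMM over all 92, gene counts per ERCC count were 164 and 104 with BRM014 and 84.1 and 171 with DMSO, a wide spread within each group. All 573 genes called relative to the expressed genes had the same sign on each ERCC scale, and 106 of the calls were kept with plain ERCC sums, 68 with TMM over the 6 abundant ERCC RNAs and 0 with TMM over all 92.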

How the data were processed

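The deposited values were counts of reads per gene for 55376 genes of mm10 and for 92 ERCC RNAs, whole numbers made by the authors. Per the submitters' processing notes, Trim Galore 0.6.4, STAR 2.7.1a, featureCounts and edgeR 3.32.1 were used. Strand and multiple alignments in counting are not given in the sources used here. The comparison was fitted with edgeR 4.0.16 (quasi-likelihood F test, TMM scaling, Benjamini-Hochberg adjustment, threshold 0.05) over all 8 nascent RNA libraries, which share the estimate of spread, on 8017 genes that passed edgeR's default filter and whose mean count was at least 10-fold above the background of 1434 receptor genes. SEs came from the F statistic. DESeq2 1.42.0 and other scalings, filters and left-out libraries were the alternatives, and the fit was tested on simulated data. Named genes were the 15 largest rises and falls over 200 bases above median abundance, 8 falls and up to 3 rises at or under 200 bases, up to 6 called members of each of 59 lists, and a fixed set, with predicted genes left out of the rises and falls. Other genes named (Xbp1, Asns, Psat1, Phgdh, Cdkn1a, Rn7sk, Rmrp, Mdn1, Macf1 and the hosts and motif genes) were chosen after their values were seen. Some genes that the rule names are not reported here. Members and lists were chosen with earlier results of these data known. The Chd4 contrast and the 40 chromatin immunoprecipitation samples were not used further.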

Additional observations from a re-analysis of the deposited data

How the results depend on the processing

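The groups do not overlap in any of the 573 called genes, so leaving out a library could hardly turn a direction, and what moved was the test. The counts of higher and lower genes moved by over 1.5 times with the filter, to 498 and 803 at 3-fold above background, 52 and 203 at 30-fold, and 416 and 568 with edgeR's default filter. 344 were higher without a filter and 328 with the background taken from the 4 libraries. DESeq2 called 96 and 207. TMM over the 6 abundant ERCC RNAs gave 8 and 60, plain ERCC sums 13 and 93, and TMM over all 92 gave 0 and 0. With genes of at most 200 bases left out 218 were lower. A further threshold of 1 on the size of the log2 fold change left 16 and 120. Leaving out 1 library at a time gave 85 to 762 higher and 148 to 671 lower. The cause of these shifts was not tested beyond the genes and libraries each one leaves out. The log2 ratio of counts per ERCC count turned to 0.0708 with TMM over all 92, to 0.16 with the size factors of DESeq2, and ranged from -0.227 to 0.00473 with a library left out.

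Whether the replicate numbers pair the libraries is not known. The deviations of BRM014 and DMSO replicate 1 from their group means had a correlation of -0.22. With 2 libraries in each group this value cannot decide the question. A replicate block gave 246 higher and 433 lower genes, and the crossed pairing gave 325 and 453. The crossed pairing was chosen after seeing the data, as was leaving out ribosomal RNA rows in the tests of genes.

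Reversals among the genes reported were found only in genes not called. With a library left out, the log2 fold change of Smarca4 ranged from -0.0832 to 0.348, the log2 fold change of Sox2 from -0.0017 to 0.349, the log2 fold change of Esrrb from -0.264 to 0.104 and the log2 fold change of Tfcp2l1 from -0.107 to 0.288. With TMM over all 92 ERCC RNAs Pou5f1 was at 0.0751. Depth limits the microRNA and other genes of under 100 counts.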

Other observations

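The tubulin, Gadd45 and linker histone genes were picked out after their values were seen, and Tubb3 and Hist1h1b are also in lists described above. All 11 expressed tubulin genes (Tuba and Tubb, pseudogenes left out), which encode the subunits of microtubules, had log2 fold changes below 0. These ran from -0.74 to -0.24 with a median of -0.55, and 7 genes fell, against 4.69% lower over all expressed genes. Each of the 7 was not called in 4 to 8 of the 20 other settings tried. Tuba1b had 2390 and 2194 scaled counts with BRM014 and 3680 and 3045 with DMSO (-0.55 ± 0.14, adjusted p = 0.0134). Tuba4a had 360 and 327 against 577 and 569 (-0.74 ± 0.13, adjusted p = 0.0011). Tubb5 had 4332 and 3818 against 4518 and 5082 (-0.24 ± 0.13) and was not called. These genes lie on several chromosomes, and some share much of their sequence, so reads may be split between them.

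The Gadd45 genes encode small stress sensors that act in DNA repair and demethylation. Gadd45g had 282 and 298 scaled counts with BRM014 and 80.2 and 87.3 with DMSO, a log2 fold change of 1.79 ± 0.14, with close replicates. Gadd45a had 421 and 435 against 204 and 256 (0.89 ± 0.13). Gadd45b was at 0.33 ± 0.14 and was not called. Of 7 expressed linker histone genes, 3 fell: H1f0 (-0.64 ± 0.14), H1fx (-0.67 ± 0.15) and Hist1h1b (-0.61 ± 0.16), while Hist1h1e was at -0.02 ± 0.14.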
